A study of Saccharomyces pastorianus with 12 samples.

Results

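The first hour of a lager fermentation was compared with its active phase. The level of every gene at 1 h was set against its levels at 24, 48 and 72 h, and a gene was a member when its 1 h level lay outside the range of those 3 times. Of 6051 genes measured, 3436 (56.8%) were members and 2615 lay inside the range. Of any 4 values 1 is the highest and 1 the lowest, so a large share of genes meets this rule by rank alone. The series followed lager brewing yeast, Saccharomyces pastorianus (also named Saccharomyces carlsbergensis), through a fermentation at production scale, with total RNA hybridised to 1 array at each of 12 times between 0 and 264 h. The groups used were the 1 h sample (1 array) and the samples of active fermentation at 24, 48 and 72 h (3 arrays). Per the labels, all groups shared the same yeast and process. The strain, the wort, the temperature, the sugar content and the number of fermentation vessels are not known from the labels, so the 12 arrays may all come from 1 fermentation. The 0 h sample and the 7 later samples served as context.

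Brewing yeast is pitched from a stored, largely resting crop into wort, which is rich in fermentable sugars and amino acids and usually carries dissolved oxygen at the start. Cells that meet sugar and nitrogen after rest make ribosomes and translation factors before they divide, under control of the TOR and protein kinase A pathways. Oxygen is needed for the synthesis of ergosterol and of unsaturated fatty acids, and once it is used up, genes of anaerobic life such as the PAU, DAN and TIR families come on while maltose and the remaining sugars are fermented to ethanol.

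The deposited values were linear intensities, 1 for each of 6084 probes, and were log2 transformed and centred on the median of each array. A level is thus how far a gene stood from its own array's median gene on the log2 scale, and a difference is the 1 h level minus the mean level of 24, 48 and 72 h. All results were also computed with quantile normalization, which gives all arrays the same distribution of values. The arrays differed in the width of their signal: the standard deviation of log2 intensity was 1.56 at 1 h, 1.48 at 24 h, 1.23 at 48 h and 0.99 at 72 h, so the 1 h array was the widest of the 4. The part of this width in the differences of bright and dim genes was not tested. Quantile values, in which all widths are equal, are given for most gene lists and for genes described here whose sign changed. All lists whose median changed sign are named. Names are those of Saccharomyces cerevisiae genes, the other parent's copies in the hybrid were not resolved, and near-identical genes (paired ribosomal protein genes, PAU genes, TEF1 and TEF2, HXT6 and HXT7) can share signal.

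Above the range at 1 h lay 1994 genes, 33% of those tested, and 1442 genes (23.8%) lay below it. These shares are the background for the list counts that follow. With a margin of 1 log2 unit, a 2-fold gap to the nearest of the 3 times, 370 genes (6.11%) were above and 205 (3.39%) below. The genes nearest to this margin were APT1, with a gap of 1.003, and RFA3, with 0.9997, on the upper side, and CSM1 (1.006) and CTI6 (0.997) on the lower side. After quantile normalization 1737 genes (28.7%) were above and 1616 (26.7%) below, and 59 (0.975%) and 148 (2.45%) passed the 2-fold margin. In both normalizations 1640 genes (27.1%) were above and 1303 (21.5%) below, and 59 (0.975%) were 2-fold above and 112 (1.85%) 2-fold below. The median difference over all genes was 0.11, and 0.04 after quantile normalization.

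A limma fit across all 12 arrays, with times grouped into windows, called 0 of 6051 genes between 1 h and 24 to 72 h after Benjamini-Hochberg adjustment, and its lowest adjusted p was 0.172. At an unadjusted p under 0.05 it held 444 genes (7.34%) as higher and 201 (3.32%) as lower at 1 h. The 1 h array had no replicate, its spread was taken from the other windows, and those hold real change between their times. All differences given here are therefore descriptions of these 4 arrays, and no named gene passed the adjusted test.

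**Figure D1:**
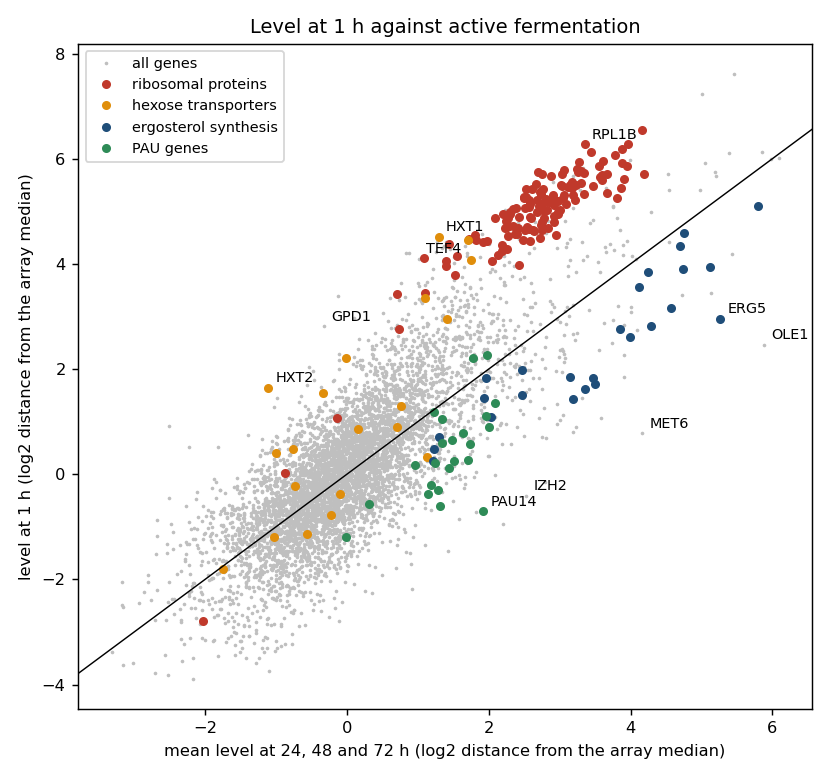
Level at 1 h (vertical axis) against the mean level at 24, 48 and 72 h (horizontal axis), both as log2 distance from the array median, for all 6051 genes, with the line of equal levels drawn. Ribosomal proteins and most hexose transporters lay above the line, while ergosterol and most PAU genes lay below it.

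Genes for cytosolic ribosomal proteins, the protein part of the ribosome, had the largest median difference of the 62 gene lists described. Of 132 measured, 131 were above the range and 86 were at least 2-fold above it, against 33% and 6.11% of all genes. The remaining member, RPL31B, was inside the range and under the 5th percentile of the 1 h array. After centring, the median level of the group was 5.08 at 1 h, 3.87 at 24 h, 2.73 at 48 h and 1.54 at 72 h. It was 0.53 at 0 h. The standard deviation of log2 intensity fell too, from 1.56 at 1 h to 0.99 at 72 h, and was 0.91 at 0 h. Its part in this descent was not tested. The median difference of the ribosomal protein genes was 2.32, a 4.99-fold higher level. After quantile normalization it was 0.82 (1.77-fold), where 112 members were still above the range and 11 were 2-fold above it. Large-subunit (77 genes) and small-subunit (55 genes) members had median differences of 2.28 and 2.38.

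RPL1B, the protein of the stalk by which spent transfer RNA leaves the large subunit, had levels of 6.28 at 1 h against 4.33, 3.61 and 2.12 at 24, 48 and 72 h, a 7.62-fold higher level. RPP0, the stalk protein that binds elongation factors, had 5.74 at 1 h against 3.66, 2.69 and 1.75, which was 8.22-fold higher. In RPS29A, of the small subunit, the level was 3.43 at 1 h and 1.10, 0.63 and 0.40 at the later times. In all 3 genes the 1 h level stood more than 1 log2 unit clear of the 24 h level, in both normalizations. Mitochondrial ribosomal proteins, which build the separate ribosome of the mitochondrion, did not share the shift: of 65, 20 were above and 13 below the range, and their median difference of 0.09 (0.03 after quantile normalization) was close to the 0.11 of all genes.

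Translation factors followed the cytosolic ribosomal proteins. Of 27 initiation factor genes, 22 were above the range, 10 of them 2-fold, and 2 were below, with a median difference of 1.06 (0.48 after quantile normalization). Both genes below were the scaffold subunits of the cap-binding complex, TIF4631 and TIF4632. TIF11, the factor that scans for the start codon, had 3.07 at 1 h against 0.32, 0.94 and 0.26, a 5.91-fold higher level. NIP1, a subunit of the large initiation factor eIF3, had 0.42 at 1 h against −1.16, −1.25 and −0.82. For both, 1 h was separated from all 3 times of active fermentation by more than 2-fold.

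Of 16 elongation and release factor genes, 11 were above the range and 0 below, with a median difference of 1.04. After quantile normalization 8 were above and 2 below, and the median difference was 0.33. TEF4, a subunit of the exchange factor of elongation factor 1, had 4.10 at 1 h against 1.06, 0.90 and 1.08, an 8.46-fold higher level with nearly equal values at the 3 later times. It had the lowest p of the limma fit, and its adjusted p was 0.172. EFB1, the catalytic subunit of the same exchange factor, had 4.20 at 1 h against 2.38, 1.32 and −1.09, and here the later times were far apart. TEF2, one of the genes for elongation factor 1 itself, had 7.61 at 1 h against 5.99, 5.73 and 4.64. The genes of this list inside the range were DPH1, DPH2 and DPH5, which modify elongation factor 2, the minor elongation factor HEF3, and RIA1, which acts in ribosome maturation.

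The machinery that assembles ribosomes was higher at 1 h by less than the ribosomal proteins were. Of 98 ribosome biogenesis genes, 54 (55.1%) were above the range, 15 of them 2-fold, and 5 (5.1%) below, against 33% and 23.8% of all genes. Their median difference was 0.59 (0.38 after quantile normalization, with 54 again above). GAR1, a protein of the small nucleolar particles that modify ribosomal RNA, had 4.29 at 1 h against 2.03, 1.51 and 0.81, a 7.16-fold higher level. TIF6, which holds the large subunit apart until it is mature, had 2.38 at 1 h against 0.02, 0.53 and −0.07. Those below were NOG2, NOP14, NSR1, SPB1 and SSF2, so the list was not uniform. Of 34 genes for RNA polymerases I and III and their factors, which transcribe ribosomal and transfer RNA, 16 (47.1%) were above and 7 (20.6%) below. The lower share was near that of all genes, and the median difference was 0.39 (0.33 after quantile normalization).

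Aminoacyl-tRNA synthetases, which load transfer RNA with amino acids, were above the range in 16 of 19 genes, with a median difference of 0.93 (0.43 after quantile normalization, with 12 above). FRS1, for phenylalanine, had 1.09 at 1 h against −0.42, −0.70 and −0.17. KRS1, for lysine, was the only one below, at 1.900 against 3.09, 2.20 and 1.904. Purine and pyrimidine synthesis had 14 of 32 genes (43.8%) above and 6 (18.8%) below, against 33% and 23.8% of all genes. Its members differed widely around a median difference of 0.05 (−0.12 after quantile normalization). URA5, an enzyme of the last steps of uridine monophosphate synthesis, had 2.91 at 1 h against 0.79, 0.85 and 0.09 (5.02-fold), and PRS1, a synthetase of the shared ribose precursor, had 3.05 against 1.75, 0.83 and −0.01.

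**Figure D2:**
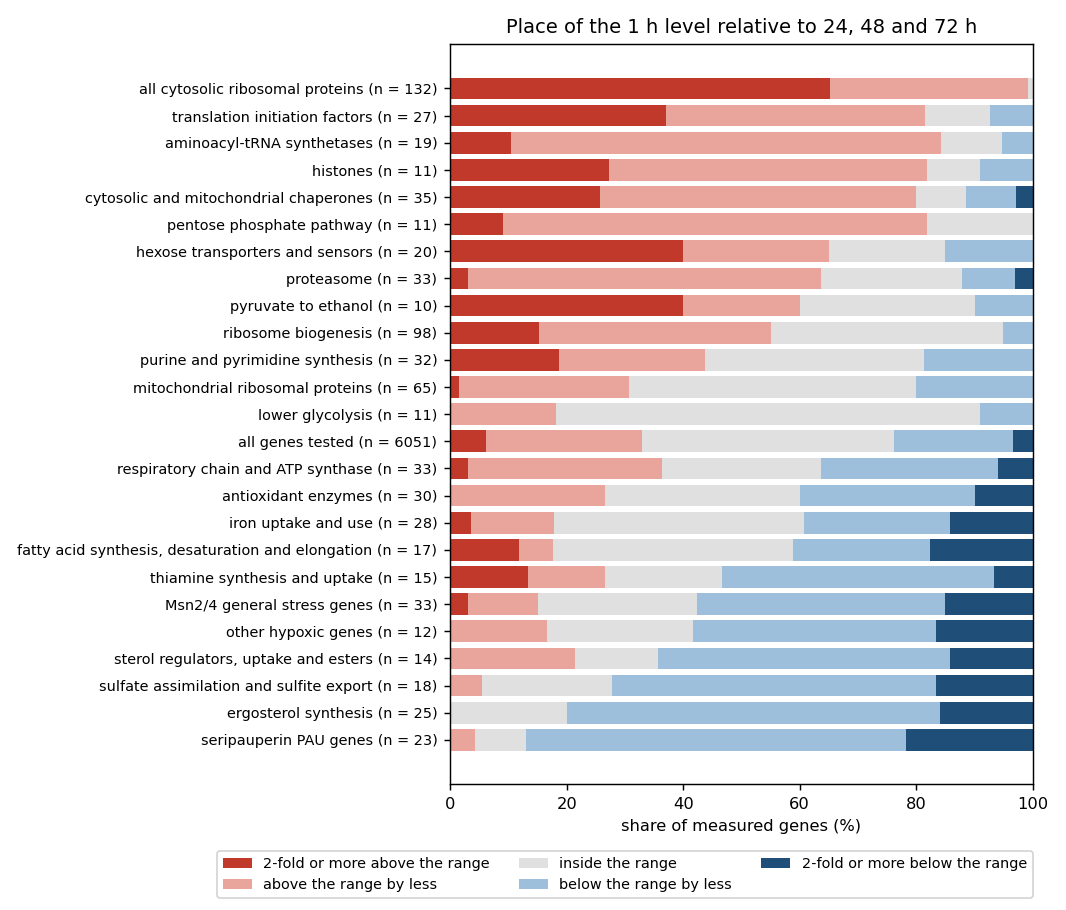
Share of measured genes (horizontal axis, %) whose 1 h level was above, inside or below the range of 24, 48 and 72 h, for selected gene lists and for all genes tested, with darker colours for gaps of at least 2-fold. Ribosomal proteins, with 131 of 132 above, and PAU genes, with 20 of 23 below, stand at opposite ends.

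Chaperones of the cytosol and mitochondria were above the range in 28 of 35 genes, 9 of them 2-fold, with a median difference of 0.86 (0.40 after quantile normalization). SSB2, a chaperone that sits on the ribosome and receives new chains, had 5.82 at 1 h against 4.25, 3.18 and 2.56, a 5.62-fold higher level. HSP82, a chaperone of signalling proteins, had 4.13 at 1 h against 1.38, 2.22 and 0.93 (6.14-fold), and SSA1, a general Hsp70, had 4.43 against 2.41, 2.43 and 1.10. SSB1, whose protein is nearly identical to that of SSB2, had −2.73 at 1 h against −1.05, −1.44 and −0.86, under the 5th percentile of the 1 h array, so the 2 probes went opposite ways. CCT6, CDC37 and SSQ1 were the other members below the range.

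Genes of chromosome duplication were higher where they code for histones. Of 11 histone genes, 9 were above the range and 1 below, with a median difference of 1.59 (0.68 after quantile normalization). HTB2, a histone H2B, had 3.55 at 1 h against 2.38, 1.09 and 1.02, and HTA2, a histone H2A, had 3.37 against 2.31, 1.27 and 0.61. DNA replication genes were less uniform, with 16 of 38 (42.1%) above and 8 (21.1%) below, against 33% and 23.8% of all genes. Their median difference was 0.19 (0.12 after quantile normalization). Among them RNR1, the large subunit of the enzyme that makes deoxynucleotides, had 1.06 at 1 h against −0.72, −0.43 and −1.29, a 3.68-fold higher level. Cyclins and cell cycle regulators had 6 of 25 genes above and 6 below (24% each), with a median difference of −0.03 in both normalizations. PMA1, the proton pump of the plasma membrane, had 2.41 at 1 h against 0.78, 1.09 and 0.14, and 8 of 14 proton pump genes were above the range with 0 below. After quantile normalization 5 of the 14 were above and 2 below, and their median difference was 0.20 instead of 0.71.

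Hexose transporters, which carry glucose and fructose into the cell, were above the range in 13 of 20 genes, 8 of them 2-fold, with a median difference of 0.97 (0.54 after quantile normalization). HXT2, a transporter of high affinity that is expressed at low glucose, had 1.64 at 1 h against −1.73, −0.81 and −0.79, a 6.75-fold higher level. It led the genes ranked by the smaller of their gaps above the range in both normalizations, with unnamed probes and dim genes left out. HXT1, the low-affinity transporter induced by high glucose, had 4.51 at 1 h against 1.38, 1.55 and 0.96 (9.30-fold). HXT3 had 2.20 at 1 h against −0.53, 0.38 and 0.10, and HXT4 had 4.46 against 2.38, 1.58 and 1.18. The transporters of high and of low affinity thus stood above the range together.

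HXT7, of high affinity, had 4.07 at 1 h against 1.97, 1.72 and 1.56, and HXT6, which can share its signal, had 3.36 against 1.33, 0.76 and 1.22. HXT5, linked to slow growth, had 2.95 at 1 h against 2.09, 1.37 and 0.78. Unlike the ribosomal proteins, most of these genes were already high at 0 h: 15 of the 20 had a 0 h level above the active range and 0 had one below it, against 27.4% and 28.9% of all genes. HXT1 stood at 3.12, HXT4 at 3.57 and HXT7 at 3.86 at 0 h. Below the range at 1 h were HXT15, HXT17 and the glucose sensor RGT2.

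The place of glycolytic genes rested on the normalization. HXK2, the main hexokinase in glucose, had 4.38 at 1 h against 1.62, 3.14 and 1.27, a 5.18-fold higher level, although it was inside the range after quantile normalization. GLK1, a glucokinase of stressed or sugar-poor cells, had 1.40 at 1 h against 1.45, 2.08 and 1.56, and HXK1 had 3.26 against 2.75, 3.38 and 1.83, a difference of 0.61 that was −0.26 after quantile normalization. Of 8 genes from hexose phosphorylation to triose phosphate, 4 were above and 1 below, with a median difference of 0.97. After quantile normalization 3 of these 8 were above and 3 below, 0 of them 2-fold above, and the median difference was 0.08. Of 11 genes from triose phosphate to pyruvate, 2 were above, 1 was below and the rest were inside. TDH3, the main glyceraldehyde-phosphate dehydrogenase, had 6.12 at 1 h against 6.39, 6.22 and 4.96, and CDC19, pyruvate kinase, had 4.33 against 4.49, 3.66 and 2.78. Their differences of 0.27 and 0.68 became −0.50 and −0.69 after quantile normalization. The median difference of this lower segment was 0.46 after centring and −0.69 after quantile normalization, where 9 of the 11 genes were below the range.

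From pyruvate to ethanol, 6 of 10 genes were above the range, 4 of them 2-fold, and the median difference was 1.30 (0.11 after quantile normalization). PDC1, the main pyruvate decarboxylase, had 6.08 at 1 h against 4.41, 3.64 and 3.26, a 4.94-fold higher level (2.38-fold after quantile normalization). ADH1, the main alcohol dehydrogenase of fermentation, had 4.83 at 1 h against 4.23, 3.47 and 2.71, but its difference was −0.12 after quantile normalization. The pentose phosphate pathway, a source of NADPH and ribose, had 9 of 11 genes above and 0 below, with a median difference of 0.75. After quantile normalization 5 were above and 1 below, and the median difference was 0.16. TKL1, its main transketolase, had 0.95 at 1 h against −0.34, −0.69 and −0.94.

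The glycerol list as a whole, which also holds breakdown and transport, lay near the level of all genes, with 5 of 13 genes above and 3 below and a median difference of 0.19 (−0.03 after quantile normalization). The members GPD1, GPP1 and GPD2 had wide gaps. GPD1, the osmotically induced dehydrogenase that commits carbon to glycerol, had 2.81 at 1 h against −0.63, 0.63 and −0.97, an 8.77-fold higher level, and its level at 0 h was −0.35. GPP1, the phosphatase of the next step, had 3.30 at 1 h against 1.46, 1.28 and 0.39 (4.79-fold). GPD2, the isoform induced without oxygen, had 2.02 at 1 h against 1.01, −0.85 and 0.44. In all 3 genes 1 h was 2-fold or more clear of the range after centring, and in 1 of them, GPD1, also after quantile normalization.

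Genes for maltose and sucrose, the sugars used after glucose and directly outside the cell, stayed near the range. Of 14, 4 were above and 1 below, with a median difference of −0.05 (−0.29 after quantile normalization, with 8 below). MAL31, a maltose transporter, had 2.29 at 1 h against 2.04, 3.07 and 1.74, inside the range, and its difference of 0.00 was −0.56 after quantile normalization. MAL32, a maltase, had 4.41 at 1 h against 5.42, 4.71 and 3.48, and MAL11, a transporter of maltose and related sugars, had 2.96 against 2.50, 1.34 and 0.48. SUC2, invertase, had 2.40 at 1 h against 2.39, 2.92 and 2.19.

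Ergosterol synthesis, which makes the main sterol of yeast membranes, had uniformly lower levels at 1 h. All 25 measured genes had a 1 h level under the mean of active fermentation, 20 were below the range, 4 of them 2-fold, and 0 were above, against 23.8% and 3.39% of all genes for the 2 lower counts. The median level was 1.97 at 1 h, 4.13 at 24 h, 3.68 at 48 h and 3.16 at 72 h. The median difference was −0.96, a 1.94-fold lower level, and −1.58 after quantile normalization, where all 25 were below the range and 18 were 2-fold below. At 0 h the median level was 0.95, and all 25 genes had a 0 h level below the active range. The 5 genes inside the range after centring were ERG2, ERG10, ERG25, ERG28 and NCP1.

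HMG1, a main HMG-CoA reductase and a control point of the pathway, had 1.72 at 1 h against 3.66, 3.68 and 3.16, a 3.43-fold lower level. ERG20, which makes farnesyl pyrophosphate, had 1.63 at 1 h against 3.74, 3.16 and 3.16 (3.31-fold lower). ERG5, a cytochrome P450 that desaturates the sterol side chain and needs oxygen, had 2.96 at 1 h against 5.47, 5.31 and 5.01, a 4.93-fold lower level. For these genes the 3 active times lay close together and 1 h stood apart from them. ERG11, the oxygen-dependent demethylase, had 5.09 at 1 h against 6.14, 6.02 and 5.24, and ERG1, squalene epoxidase, had 3.94 against 5.44, 5.41 and 4.51.

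Of 14 genes for sterol regulators, uptake and esters, 9 were below the range and 3 above, with a median difference of −0.50 (−0.36 after quantile normalization). YEH1, a steryl ester hydrolase, had 0.68 at 1 h against 3.02, 2.53 and 2.88, a 4.37-fold lower level. ACS2, the acetyl-CoA synthetase that supplies sterol and fatty acid synthesis, had 2.74 at 1 h against 4.50, 3.98 and 3.81. OLE1, the only fatty acid desaturase of Saccharomyces cerevisiae and an oxygen-dependent enzyme, had 2.46 at 1 h against 5.94, 6.18 and 5.51, a 10.7-fold lower level, and led the same ranking below the range. Its level at 0 h was 6.13, so the 1 h value was low against both sides.

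FAS1, a subunit of fatty acid synthase, had −0.51 at 1 h against 1.43, 1.31 and 1.76, a 4.04-fold lower level, and ACC1, the carboxylase that starts fatty acid synthesis, had 0.20 against 1.72, 1.20 and 0.88. The elongases of very long chains went the other way. ELO2 had 1.31 at 1 h against −0.16, −0.87 and 0.16, and ELO3 had 1.34 against −0.03, −1.04 and 0.11, 3.03-fold and 3.16-fold higher. Over all 17 genes of fatty acid synthesis, desaturation and elongation, 7 were below the range and 3 above, with a median difference of −0.22 (−0.41 after quantile normalization).

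The PAU genes, a large subtelomeric family of small cell wall proteins expressed in anaerobic wine and beer fermentation, were below the range in 20 of 23 cases, 5 of them 2-fold, and above it in 1. Their median level was 0.28 at 1 h, 1.38 at 24 h, 1.51 at 48 h and 1.43 at 72 h. The median difference was −1.03, a 2.05-fold lower level, and nearly the same, −1.0, after quantile normalization. Because family members can cross-hybridise, the 23 values are not independent. PAU14 had −0.70 at 1 h against 2.04, 1.84 and 1.88, a 6.17-fold lower level. PAU17, the member above the range, had 2.20 at 1 h against 1.66, 2.09 and 1.60, and its difference was −0.17 after quantile normalization.

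Among 6 DAN and TIR genes, cell wall mannoproteins of anaerobic cells, 4 were below the range and 0 above, with a median difference of −1.09 (−1.10 after quantile normalization). TIR1 had 4.18 at 1 h against 5.66, 5.59 and 5.04, and TIR2 had 2.26 against 4.0, 3.92 and 3.78. DAN1 had −0.27 at 1 h against 1.30, −0.01 and 0.85. Of 12 other hypoxic genes 7 were below and 2 above, with a median difference of −0.54 (−0.62 after quantile normalization). CYC7, the cytochrome c isoform of low oxygen, had 1.85 at 1 h against 3.92, 4.52 and 3.30 (4.19-fold lower), and COX5B, its counterpart in cytochrome oxidase, had −0.25 against 1.08, 2.24 and 1.63. ANB1, the hypoxic form of a translation factor, was an exception at 5.91 against 5.48, 5.35 and 4.33, with a difference of −0.18 after quantile normalization. HEM13, the oxygen-requiring heme enzyme that cells raise when oxygen is scarce, had 1.18 at 1 h against 1.52, 2.09 and 1.21.

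**Figure D3:**
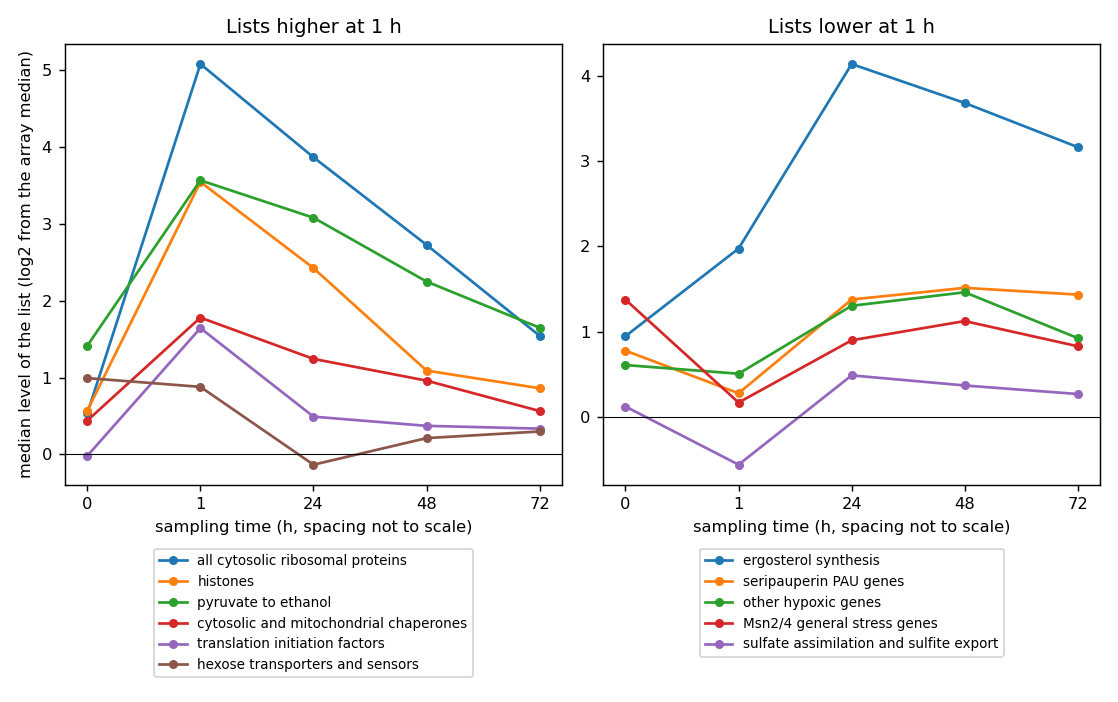
Median level of 11 gene lists (vertical axis, log2 distance from the array median) at 0, 1, 24, 48 and 72 h, with lists that were higher at 1 h on the left and lists that were lower at 1 h on the right. Ribosomal proteins peaked at 5.08 at 1 h, while ergosterol genes stood at 1.97 at 1 h and 4.13 at 24 h.

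Sulfate assimilation, which reduces sulfate for methionine and cysteine and releases sulfite into beer, was lower at 1 h. Of 18 genes, 13 were below the range, 3 of them 2-fold, and 1 was above, with a median difference of −0.89 (−0.76 after quantile normalization). MET2, which prepares the carbon backbone that takes up sulfide, had −0.42 at 1 h against 0.81, 1.13 and 0.61. SSU1, the sulfite exporter, had −0.91 at 1 h against 0.29, 0.41 and 0.04. MET10, a subunit of sulfite reductase, was lower too, but its 1 h level of −2.59 lay under the 5th percentile of that array. MET5, the other subunit of the same enzyme, had 3.13 at 1 h against 2.59, 1.29 and 0.84 and was the member above.

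MET6, methionine synthase, had 0.78 at 1 h against 4.45, 4.63 and 3.41, a 10.4-fold lower level, and SAM2, which makes S-adenosylmethionine, had 3.45 against 5.62, 5.24 and 4.54. These were single genes of their list: of 17 genes of methionine, methyl cycle and cysteine metabolism, 4 were below and 6 above, near the 23.8% and 33% of all genes. The median difference of the list was −0.04 (−0.07 after quantile normalization). BIO2, biotin synthase, had 0.96 at 1 h against 3.48, 3.08 and 2.35, a 4.03-fold lower level. In leucine synthesis LEU1 had −0.06 at 1 h against 1.47, 2.02 and 1.49 and LEU2 had −0.05 against 1.09, 2.79 and 1.52. Of the 12 branched-chain synthesis genes, 2 were above the range, 3 (25%) below and 7 inside. The median difference of that list was 0.06 (−0.26 after quantile normalization). ILV5, of the shared branched-chain pathway, had 2.72 at 1 h against 2.61, 2.86 and 2.41, inside the range, with a difference of 0.10 that was −0.57 after quantile normalization.

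General stress genes driven by the factors Msn2 and Msn4 were below the range in 19 of 33 cases and above it in 5, with a median difference of −0.66 (−0.74 after quantile normalization). Their median level was 1.37 at 0 h, 0.17 at 1 h, 0.90 at 24 h, 1.12 at 48 h and 0.83 at 72 h, so 1 h was the lowest of the 5 times. HSP26, a small heat shock protein, had −0.06 at 1 h against 1.70, 1.32 and 1.55, and stood at 3.72 at 0 h. HSP12, a membrane stress protein, had −0.32 at 1 h against 0.96, 0.99 and 0.94, and CTT1, cytosolic catalase, had 0.58 against 1.80, 2.90 and 2.25. HSP104, a disaggregase, had 1.29 at 1 h against 1.44, 0.43 and −0.18, and HSP78, its mitochondrial relative, had 2.37 against 0.83, 0.47 and −0.23, a 4.05-fold higher level. Reserve carbohydrate genes were mixed, with TPS1, trehalose phosphate synthase, at 2.67 against 1.96, 1.98 and 1.44, and GSY2, glycogen synthase, at 0.90 against 1.13, 0.40 and 0.79, whose difference of 0.13 was −0.11 after quantile normalization.

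The proteasome, which degrades tagged proteins, had 21 of 33 genes above the range and 4 below, with a median difference of 0.56 (0.18 after quantile normalization). Its transcription factor RPN4 was among those below, with −1.76 at 1 h against −0.24, 1.08 and 0.36, a 4.48-fold lower level. TMA17, an assembly chaperone of the proteasome, had 1.06 at 1 h against 4.22, 3.56 and 2.98 (5.75-fold lower). Antioxidant enzymes had 12 of 30 genes (40%) below and 8 (26.7%) above, against 23.8% and 33% of all genes. Their median difference was 0.09 (−0.06 after quantile normalization). Among them TSA1, the main peroxiredoxin, had 3.41 at 1 h against 4.94, 4.85 and 4.37, and MXR2, a methionine sulfoxide reductase, had 0.18 against 1.33, 1.16 and 0.39 after 4.78 at 0 h.

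Genes of metal handling included some wide gaps. Of 12 genes of zinc transport and the IZH family, 5 were above the range and 5 below, where all genes had 33% and 23.8%. Their median difference was −0.21 (−0.44 after quantile normalization). IZH2, a membrane protein tied to zinc and lipid status, had −0.41 at 1 h against 2.01, 2.63 and 2.95, a 7.65-fold lower level, and stood at 3.76 at 0 h. Its relative IZH4 had 0.05 at 1 h against 1.92, 1.91 and 1.64. ZRT1, the high-affinity zinc transporter, had 4.82 at 1 h against 3.17, 3.43 and 2.64, which was 3.33-fold higher after centring, with a difference of 0.16 after quantile normalization. FIT3, a wall mannoprotein that retains iron carriers, had −1.35 at 1 h against 1.43, 0.27 and 1.61. Of 28 genes of iron uptake and use, 11 (39.3%) were below and 5 (17.9%) above, against 23.8% and 33% of all genes. Their median difference was −0.35 in both normalizations.

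EEB1, an enzyme that forms ethyl esters of medium-chain fatty acids, had −0.16 at 1 h against 2.07, 3.51 and 2.79, a 7.70-fold lower level. It stood out among the 21 genes of aroma esters and fusel alcohols. Of these, 6 (28.6%) were below the range, near the 23.8% of all genes, and 2 (9.5%) above. The median difference of the list was −0.17 (−0.18 after quantile normalization). ATF1, the main alcohol acetyltransferase, had 0.69 at 1 h against 1.45, 0.51 and 0.39, inside the range. FLO1, a flocculin that binds cells together, had 1.79 at 1 h against 0.87, 1.66 and 1.57, and its difference changed sign to −0.11 after quantile normalization. GAP1, the general amino acid permease, had 0.50 at 1 h against −0.47, 0.34 and 0.25. ACT1, actin, often used as a reference gene, had 4.58 at 1 h against 3.69, 2.83 and 1.91, a difference of 1.77 that was 0.32 after quantile normalization.

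The genes with the largest gaps in both normalizations covered other functions as well. Unnamed probes, genes near the floor of their array and all but 3 ribosomal proteins were left out of this ranking. Above the range were YCG1, a subunit of condensin that compacts chromosomes, with 4.20 at 1 h against 1.04, 1.09 and 0.36, and NTF2, a carrier of nuclear import, with 2.29 against 0.22, −0.28 and −0.28. REV3, the catalytic subunit of DNA polymerase zeta, had 1.95 at 1 h against −0.77, −0.40 and −0.27, and IST1, of endosomal sorting, had 2.04 against −0.07, −1.08 and −0.46. The open reading frame YML119W had 3.38 at 1 h against 0.51, −0.96 and 0.07, an 11.4-fold higher level. PTA1, of messenger RNA 3′ end formation, completed the upper set with 1.29 against −0.74, −0.47 and −0.56.

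Below the range, UBC12, which attaches the ubiquitin-like protein Rub1, had −1.47 at 1 h against 0.98, 0.79 and 0.71, a 4.92-fold lower level. SGF29, a subunit of the SAGA coactivator, had −0.86 at 1 h against 2.39, 1.24 and 1.12, and the kinase gene PKH1 had −1.49 against 1.42, 0.82 and 0.45. POT1, the thiolase of fatty acid oxidation in the peroxisome, had −1.78 at 1 h against 1.08, 0.28 and 0.73. Repeated sequences were present too, with YCL019W, of a Ty retrotransposon, at 0.81 against 3.96, 3.08 and 2.53, and YRF1-5, a subtelomeric helicase gene with many near copies, at −1.70 against 1.89, 0.38 and 0.45. For such repeats the signal cannot be given to 1 locus.

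**Figure D4:**
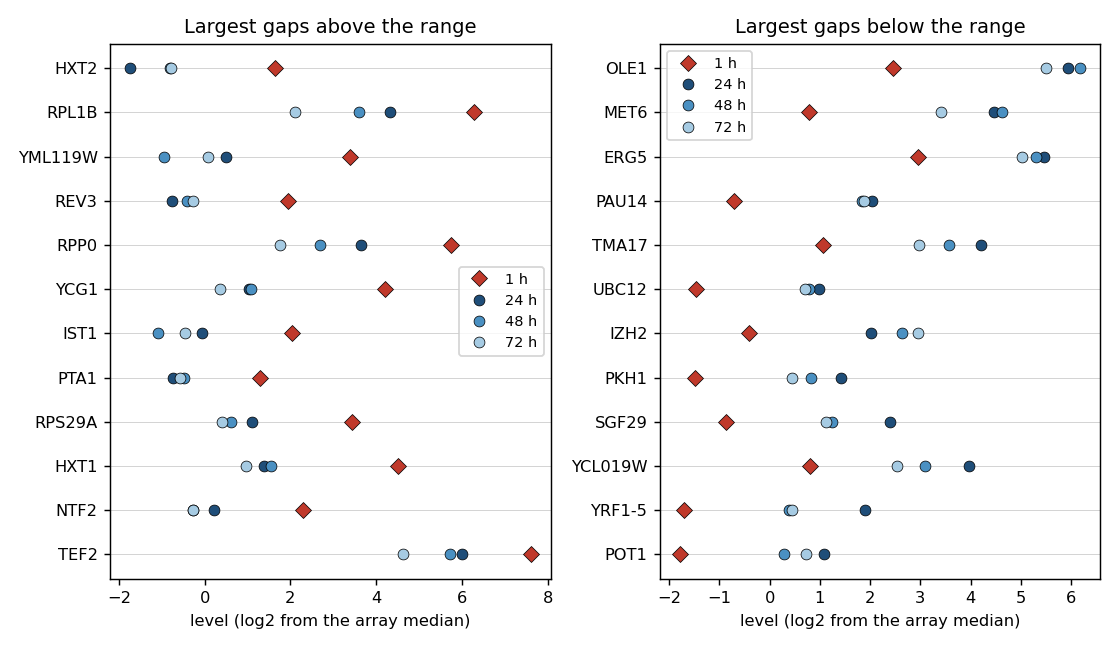
Levels (horizontal axis, log2 distance from the array median) at 1 h (diamonds) and at 24, 48 and 72 h (circles) for the 12 genes with the largest gaps above the range and the 12 with the largest gaps below it in both normalizations. Unnamed probes, genes near the floor of their array and all but 3 ribosomal proteins were left out. Each diamond stands clear of its 3 circles, from HXT2 and OLE1 at the top to TEF2 and POT1 at the bottom.

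The members differed in where they had stood at pitching. Of the 370 genes at least 2-fold above the range at 1 h after centring, 243 (65.7%) had a 0 h level below the active range, against 28.9% of all genes, and 51 (13.8%) had one above it. The 370 include 86 ribosomal protein genes, a list in which 127 of 132 had a 0 h level below the active range. The standard deviation of log2 intensity was 0.91 at 0 h and 1.56 at 1 h, and its part was not tested. In 346 of the 370 (93.5%) the 1 h level was the highest of all 12 arrays, against 19.8% of all genes. The hexose transporters HXT1 and HXT3 were exceptions, since HXT1 had 4.51 at 1 h and 4.93 at 168 h, and HXT3 had 2.20 at 1 h and 3.63 at 168 h. The highest active time was 24 h in 252 of the 370 (68.1%) and the lowest was 72 h in 285 (77.0%), against 39.8% and 38.4% of all genes. Among the 59 genes 2-fold above in both normalizations the shares were less marked. Of these, 49.2% had a 0 h level below the active range and 25.4% one above it. The 1 h level was the highest of all 12 arrays in 84.7%. Their highest active time was 24 h in 49.2% and their lowest was 72 h in 61.0%. Selection by a high 1 h level favours a 1 h level that is the highest of all 12 arrays. The standard deviation of log2 intensity was 1.48, 1.23 and 0.99 at 24, 48 and 72 h. Its part in the order of the active times was not tested. All these shares are a description.

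Of the 205 genes at least 2-fold below the range after centring, 69 (33.7%) had a 0 h level above the active range and 68 (33.2%) one below it, near the 27.4% and 28.9% of all genes. Among the 112 genes 2-fold below in both normalizations these shares were 26.8% and 39.3%. Genes low at both 0 and 1 h included ERG5, ERG20, HMG1, FAS1, MET6, BIO2 and LEU1. Genes whose 0 h level was above the active range and whose 1 h level was below it included HSP26, ALD3, IZH2, IZH4, FAA4 and RPN4. The 1 h level was the lowest of all 12 arrays in 156 of the 205 (76.1%), against 12.7% of all genes. In 71 of the 205 the 1 h level lay under the 5th percentile of that array, where no background measure was at hand to say how much was signal.

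**Figure D5:**
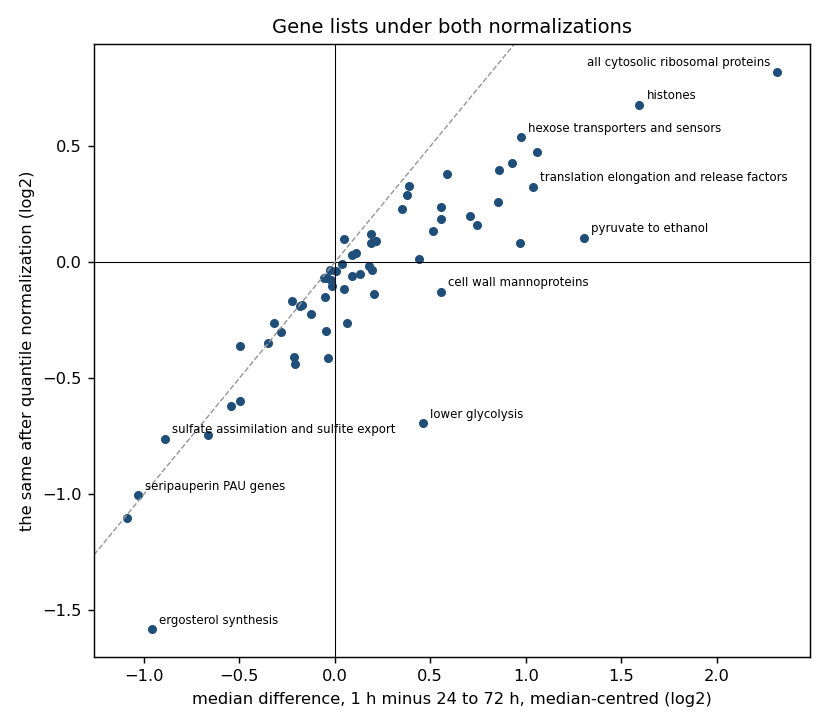
Median difference of each gene list (1 h minus the mean of 24, 48 and 72 h, log2) after median centring (horizontal axis) and after quantile normalization (vertical axis), with a dashed line of equality. Ribosomal proteins moved between 2.32 and 0.82, ergosterol genes between −0.96 and −1.58, and lower glycolysis changed sign.

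The plot of the lists under both normalizations shows which groups kept their place. Ribosomal proteins, initiation factors, histones, chaperones and hexose transporters had positive medians both ways, while ergosterol, PAU, DAN and TIR, sulfate and general stress genes had negative medians both ways. These positive medians were smaller after quantile normalization, and those of ergosterol synthesis and the PAU genes were −1.58 and −1.0. Of the 62 lists, 11 had medians of opposite sign in the 2 normalizations. Lower glycolysis (0.46 after centring, −0.69 after quantile normalization), cell wall mannoproteins (0.55 and −0.13), branched-chain amino acid synthesis (0.06 and −0.26) and copper genes (0.20 and −0.14) were among them. The others were amino acid permeases (0.18 and −0.02), glycerol, glycogen, antioxidant, purine and pyrimidine, nitrogen-repressed and vitamin B6 and biotin genes.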

How the data were processed

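The values were the deposited linear intensities, whole numbers for 6084 probes on each of 12 arrays. Per the labels, each array held total RNA from 1 time. How the authors scanned, corrected or scaled these intensities is not given in the sources used here. Probes were named through GEO's platform annotation, which can be old (5523 with 1 symbol, 0 with several, 561 with none). Probes of 1 symbol were averaged on the log2 scale, which gave 6051 tested rows (5490 named genes, 561 unnamed probes). The 3 zeros, all at 168 h, were treated as missing, and a gene needed values on 9 arrays. Each array was centred on its median.

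The linear model of limma (version 3.58.1, R version 4.3.3) with moderated variances, a two-sided test, Benjamini-Hochberg adjustment and a threshold of 0.05 (7 residual and 9.585 prior degrees of freedom) was fitted to all 12 arrays, in groups of 0 h, 1 h, 24 to 72 h, 96 to 144 h and 168 to 264 h, and was tested on simulated data. In the simulation 22% of changes of 2 log2 units and 81% of changes of 4 log2 units were recovered, with 4 false calls. With 1 array at each time, the number of arrays limits the precision. p-values measure the spread between these samples only, which may be technical or real change within a window.

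The comparison and its 62 gene lists were chosen with earlier results of these data known. Genes were named by rule: the 12 largest gaps each way in both normalizations, with at most 3 ribosomal protein genes and none under the 5th percentile on its dimmer side, the leading members of lists, and a set of brewing genes. Unnamed probes were left out of the largest gaps. Other genes, such as list members on the unusual side, were named after their values were seen. The alternatives were other normalizations, filters on dim genes and leaving out arrays. No gene sequence was used here.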

Additional observations from a re-analysis of the deposited data

How the results depend on the processing

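With quantile normalization 59 genes were 2-fold above the range. With values as deposited, not centred, 843 genes were above, 2220 below, 84 2-fold above and 378 2-fold below. With arrays scaled to equal spread (scaled MAD) 151 were 2-fold above and 92 2-fold below. Without the dimmest 25% of genes, which leaves fewer genes to count, 131 were 2-fold below. Leaving out 24, 48 or 72 h in turn gave 414 to 698 genes 2-fold above (698 without 24 h, 566 without 48 h), 285 to 370 2-fold below (370 without 24 h, 345 without 48 h), 2270 to 2514 above and 1764 to 2146 below, since a range of fewer arrays is narrower. limma called 0 genes in every planned setting, with a lowest adjusted p between 0.0518 (without 24 h) and 1.0 (as deposited). Under cyclic loess, an alternative chosen after seeing the data, it called 11 higher (among them TEF4, RPP0, HXT1 and YCG1) and 2 lower, 1 of them OLE1 (adjusted p = 0.0117), and the cause was not tested. With quantile normalization 11 of 62 list medians and 21 of 294 named genes changed sign, among them lower glycolysis (−0.69), CDC19 (−0.69) and FBA1 (−0.96). Of lists with most members outside the range on 1 side, and of genes outside it, the sign reversed for the median of cell wall mannoproteins (−0.13), ADH1 (−0.12), ANB1 (−0.18), FLO1 (−0.11), PAU17 (−0.17) and SOL3 (−0.12), with scaled MAD for ANB1 (−0.31), FLO1 (−0.0246) and PAU17 (−0.0518), and for TFC3 with a floor at the 5th percentile (−0.20). The cause was not tested. No paired analysis was possible because the labels carry no replicate numbers and 1 h has 1 array. No background signal came with the intensities, so the depth of dim genes is unknown.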

Other observations

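Thiamine genes were divided: of 15, 8 were below the range and 4 above (7 and 3 after quantile normalization), against 23.8% and 33% of all genes. PET18 had 4.41 at 1 h against 0.83, 2.63 and 0.35, while THI7, the thiamine transporter, had −1.72 against −0.52, −0.02 and −0.004. Respiratory chain and ATP synthase genes had 12 of 33 above and 12 below (36.4% each), against 33% and 23.8% of all genes. After quantile normalization 9 were above and 15 below, and the median difference was −0.41 instead of −0.04. The citric acid cycle had 4 of 17 above and 4 below (23.5% each), not more than the shares of all genes. After quantile normalization 3 were above and 7 below. Peroxisome and fatty acid oxidation genes had 10 of 30 (33.3%) below and 7 (23.3%) above, against 23.8% and 33% of all genes. After quantile normalization 11 were below and 7 above. The median difference of this list was −0.05 (−0.07 after quantile normalization). CTA1, peroxisomal catalase, had −1.56 at 1 h against 0.27, −0.05 and 0.22. MDH3, peroxisomal malate dehydrogenase from another list, had 0.73 against 2.72, 2.66 and 2.12.

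Vacuolar protease genes and their inhibitors had 6 of 12 below and 2 above (8 and 2 after quantile normalization). Among them PBI2, an inhibitor of protease B, was at −0.67 against 0.77, 1.41 and 1.38. Autophagy genes had 13 of 36 (36.1%) below and 6 (16.7%) above, against 23.8% and 33% of all genes. After quantile normalization 14 were below and 4 above. Genes of cell wall glucan and chitin had 13 of 28 above and 2 below, with a median difference of 0.55 (0.24 after quantile normalization), and secretory pathway genes had 24 of 49 above and 5 below, with a median difference of 0.35 (0.23 after quantile normalization).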
